A study of Mus musculus with 13 samples.

Results

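The genes described here encode the nuclear subunits of the mitochondrial respiratory chain and of ATP synthase. They were chosen by symbol: protein-coding mouse genes starting with Ndufa, Ndufb, Ndufc, Ndufs, Ndufv, Uqcr, Cox4, Cox5, Cox6, Cox7, Cox8 or Atp5, together with Sdha, Sdhb, Sdhc, Sdhd and Cyc1. This gave 94 genes of 48709 gene rows: 38 named for complex I, 4 of complex II, 9 of complex III, 18 of complex IV and 17 of complex V. The symbol rule also takes 8 Ndufaf genes, which encode assembly factors of complex I and are described apart from the other 86 genes.

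The 13 RNA-seq libraries came from motoneurons of the lumbar spinal cord of SOD1-G93A mice, which carry a mutant human SOD1 transgene and model amyotrophic lateral sclerosis. Each library held RNA from a pool of 500 motoneurons, and is taken here as 1 mouse. The cells were cut by laser from 14 µm sections stained with cresyl violet, with the cord frozen inside its vertebrae. The AAV-miR SOD1 group (4 libraries) received, into the cerebral ventricles on postnatal day 2, an adeno-associated virus whose artificial microRNA against human SOD1 is made in astrocytes. The AAV-miR ctrl group (5 libraries) received a control vector by the same route, and the non-injected group (4 libraries) consisted of SOD1-G93A littermates without injection. All mice were killed at 65 days of age, and no group lacked the transgene. By design the captured motoneurons are not the cells in which the vector makes its microRNA, and the promoter that confines it to astrocytes is not given in the sources used here.

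The respiratory chain lies in the inner mitochondrial membrane. Complex I (NADH dehydrogenase) and complex II (succinate dehydrogenase) pass electrons to ubiquinone, complex III hands them on to cytochrome c, and complex IV (cytochrome c oxidase) delivers them to oxygen. Complexes I, III and IV pump protons as they do so, and complex V (ATP synthase) uses the gradient to make ATP. Motoneurons depend heavily on this pathway, and damaged mitochondria are a known feature of mutant SOD1 mice.

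Levels are given as CPM, the counts of a gene per 1000000 counts of the library after scaling between libraries. Gene counts ranged from 13897189 to 37414222 per library, and the libraries numbered 5 and 6 were the deepest and all belonged to the control groups. In 2 count tables, both numbered replicate 3 (of the AAV-miR ctrl and the non-injected group), the column header named another group than the label, and the label was followed. The library AAV-miR ctrl replicate 4 held both Xist, at 47.5 CPM, and the Y-linked Ddx3y, at 19 CPM, whereas the other libraries with Ddx3y above 1 CPM had at most 5.52 CPM of Xist. Mouse Sod1 averaged 237 ± 48.9, 288 ± 50.3 and 334 ± 112 CPM (SD) in AAV-miR SOD1 (n = 4), AAV-miR ctrl (n = 5) and non-injected libraries (n = 4). The human transgene has no row of its own, so this row does not check the labels.

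The labelled cell type was checked against its markers. All 10 motoneuron genes were detected in all 13 libraries, Chat (the enzyme that makes acetylcholine) at 39.1 to 155 CPM. The libraries also held much RNA of other tissues: the skeletal muscle actin gene Acta1 stood at 3794 to 58118 CPM and muscle creatine kinase, Ckm, at 737 to 11234 CPM, while the haemoglobin gene Hbb-bs stood at 1715 to 24703 CPM. The mean log2 CPM of 8 skeletal muscle genes ran from 8.81 in AAV-miR SOD1 replicate 2 to 12.47 in AAV-miR ctrl replicate 3. In such bulk samples fewer cells of a type and less RNA per cell cannot be told apart.

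Some members are short and have near-copies elsewhere in the genome, which sets how their counts can be read, so the coding sequences of a pair of small complex IV subunits are printed here. Both lie on the minus strand of GRCm38, Cox7c in the gene at chromosome 13, 86044816 to 86046904, and Cox8a in the gene at chromosome 19, 7215153 to 7217616. The sequences are spliced coding exons without UTRs, from the GENCODE M21 annotation, and capitals mark bases inside any 50-base window that also occurs in a transcript of another annotated gene.
Cox7c: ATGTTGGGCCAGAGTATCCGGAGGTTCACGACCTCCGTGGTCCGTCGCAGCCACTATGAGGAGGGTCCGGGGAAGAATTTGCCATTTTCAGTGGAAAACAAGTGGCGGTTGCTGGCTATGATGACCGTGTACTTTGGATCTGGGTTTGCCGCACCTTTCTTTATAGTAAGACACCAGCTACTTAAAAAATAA
Cox8a: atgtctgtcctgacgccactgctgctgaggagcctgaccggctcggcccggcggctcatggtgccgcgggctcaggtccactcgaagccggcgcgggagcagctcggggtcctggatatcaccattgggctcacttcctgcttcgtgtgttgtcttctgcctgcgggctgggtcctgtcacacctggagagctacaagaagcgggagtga
All 192 coding bases of Cox7c fell in shared windows and none of the 210 of Cox8a did. Cox7c was counted at 21.8 to 46.5 CPM, and Cox8a at 583 to 1005 CPM. Per kilobase of transcript the median over libraries was 55.9 CPM for Cox7c and 1307 CPM for Cox8a, although the holoenzyme holds both subunits.

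Other members share most of their transcript and also read low. For Atp5l, subunit g of ATP synthase, 84.8% of the windows of the principal transcript occur in other genes and the level was 29.8 CPM per kilobase. For Atp5g2, which encodes the proton-carrying c subunit, 87.4% are shared and the level was 2.43 CPM per kilobase. The other genes for the same c protein read 57.6 (Atp5g1, 11.1% shared) and 2001 CPM per kilobase (Atp5g3, 0% shared). The value of Atp5g1 also rests on a transcript length of 2675.5 bases, beside 718.5 for Atp5g3. Alignments of reads that fell in several places were kept apart from gene counts by the authors' counter. They amounted to 0.797 to 1.48 per gene count, where a read can give more than 1 such alignment. The level of such a member is therefore uncertain and cannot be set beside another gene's. The part of shared sequence in these levels was not tested.

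**Figure D1:**
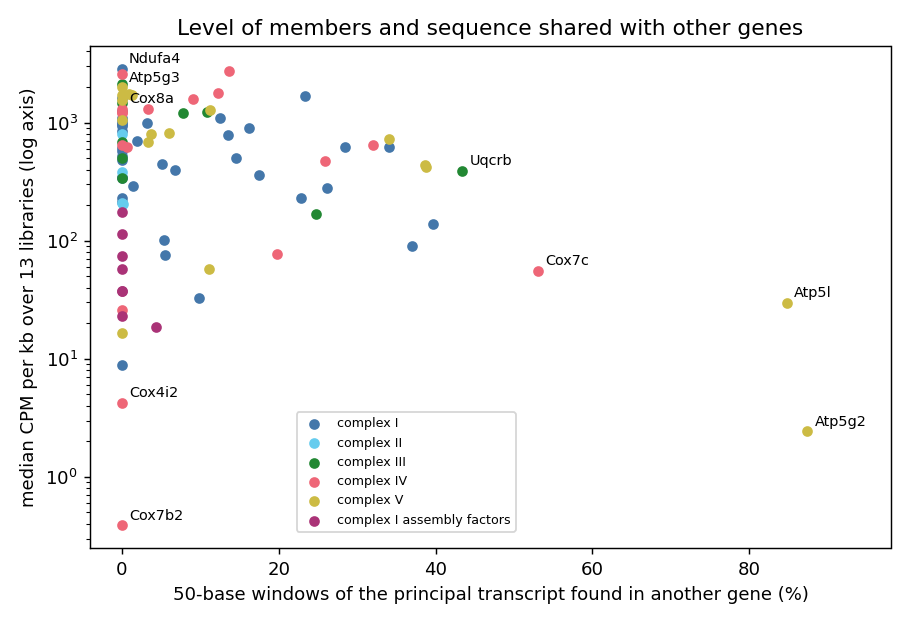
Median CPM per kilobase over the 13 libraries (log axis) of the 93 members with a median above 0, against the percentage of 50-base windows of their principal transcript that occur in another gene, coloured by complex. Atp5g2, Atp5l and Cox7c, at 87.4, 84.8 and 53% shared, lie far below most members, and Cox4i2 and Cox7b2 are low with 0% shared.

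Respiratory chain members were abundant in every library. Together they took 3.66 to 6.56% of gene counts, on average 4.75 ± 1.27% in AAV-miR SOD1 (SD, n = 4), 5.1 ± 0.829% in AAV-miR ctrl (n = 5) and 5.51 ± 1.04% in non-injected libraries (n = 4). The group ranges overlapped. Low shares came from all 3 groups: 3.66% in AAV-miR SOD1 replicates 1 and 2, 3.87% in AAV-miR ctrl replicate 1 and 4.17% in non-injected replicate 5. AAV-miR SOD1 replicates 3 and 4 stood at 6.11 and 5.55%. The split within the AAV-miR SOD1 group was larger than the difference between the group averages.

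**Figure D2:**
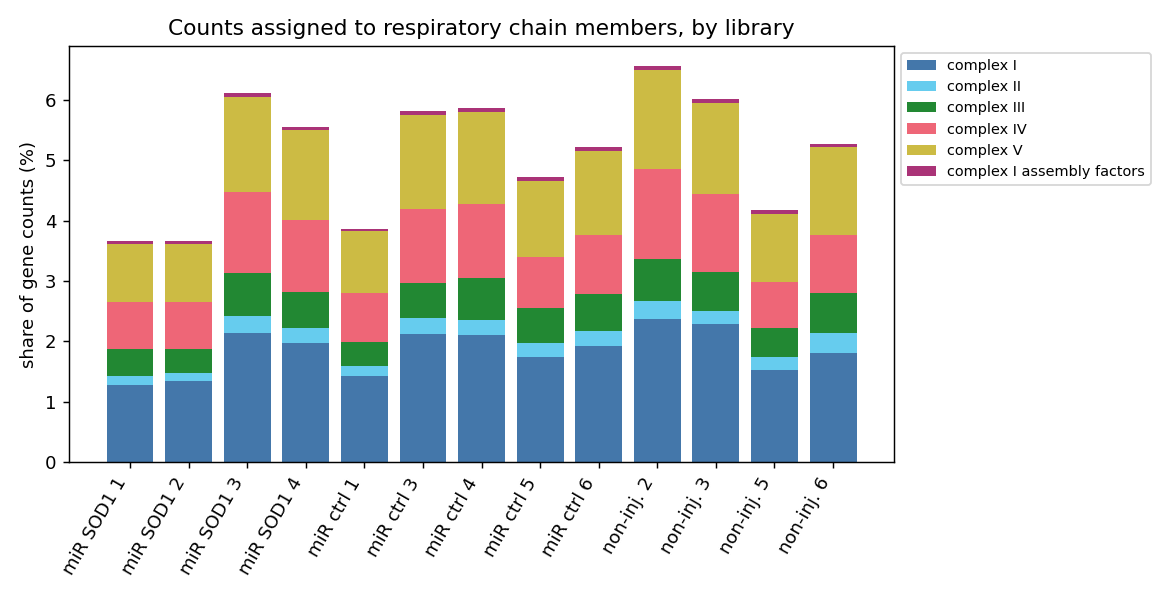
Percentage of all gene counts assigned to the members in each of the 13 libraries, stacked by complex. AAV-miR SOD1 replicates 1 and 2 and AAV-miR ctrl replicate 1 lie below 4%, and non-injected replicate 2 is highest at 6.56%.

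Of the 94 genes, 92 passed the filter on low counts and entered the tests. Cox7b2 and Cox8c did not: Cox7b2 had 80 counts and Cox8c, a testis isoform, 1 count over all libraries. The median level per kilobase of transcript was 928 CPM for the complex IV genes tested, 802 for complex V, 686 for complex III, 550 for complex I and 295 for complex II, and 47.2 for the Ndufaf assembly factors. At the top stood Ndufa4, at 2856 CPM per kilobase, whose product is now assigned to complex IV despite its symbol, followed by Cox4i1 at 2724. Of the members tested, 75 had a median above 100 CPM.

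AAV-miR SOD1 and AAV-miR ctrl mice differ in the microRNA but not in having been injected. No member passed an adjusted p of 0.05 (edgeR's quasi-likelihood test, Benjamini-Hochberg over 17403 genes), and neither did any other gene (percent called 0). At an unadjusted p under 0.05, 1 member was higher and 0 were lower, where 5.99% of all genes were higher and 8.54% lower. The members' share below that unadjusted level was thus smaller than among all genes. Their median log2 fold change was -0.15, with 75 of 92 negative, beside -0.04 over all genes.

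Against the non-injected group, which differs in microRNA, injection and vector together, again 0 members and 0 genes passed the adjusted threshold (percent called 0). At the unadjusted level 3 members were lower (Ndufa10, Ndufaf1 and Ndufaf3) and 1 higher (Cox6b2), where 11.5% of all genes were lower and 9.36% higher. The values of 4 members did not overlap between these groups of 4 and 4: Ndufaf1, Ndufaf3 and Atp5s lower and Cox6b2 higher, where 5.81% of all genes were lower and 5.9% higher without overlap. The median log2 fold change of the members was -0.26, with 87 of 92 negative, beside -0.09 over all genes.

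Between AAV-miR ctrl and non-injected, 0 members had an adjusted or an unadjusted p under 0.05, where 0% of all genes passed the former and, for the latter, 2.24% were lower and 1.38% higher. The median was -0.10, beside -0.01 over all genes. With both control groups pooled, 4 members were lower than in controls at the unadjusted level (Ndufa10, Ndufaf1, Ndufaf2 and Ndufaf3) and 1 higher (Cox6b2), where 12.1% of all genes were lower and 10.2% higher. None passed the adjusted threshold, which 0% of all genes passed, and the members' median was -0.19 beside -0.06 over all genes. These comparisons share libraries and are not independent of each other. The number lower moved with single libraries, from 0 of 92 without AAV-miR SOD1 replicate 1 to 10 without AAV-miR ctrl replicate 1, when 14.1% of all genes were lower. In the latter fit Ndufaf1 and Cox6b2 also passed the adjusted threshold, at adjusted p = 0.0383 and 0.0239 by edgeR, as did 9.84% of all genes. The pairwise numbers moved as well: without AAV-miR ctrl replicate 1, 4 members were lower than in AAV-miR ctrl, and against non-injected the number ran from 1 to 6. Leaving out both libraries with disagreeing headers left 1 member lower and 1 higher than in both control groups, and a median of -0.07. Leaving out AAV-miR ctrl replicate 4 left 2 lower and 1 higher, and a median of -0.15. The share of all genes also moved between fits and is not given here for each. These numbers are therefore not read as a result about the members.

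By complex the median log2 fold change against both control groups was -0.30 for complex I, with 37 of 38 genes negative, -0.34 for the Ndufaf genes (7 of 8), -0.33 for complex II (4 of 4), -0.18 for complex III (7 of 9), -0.14 for complex V (15 of 17) and -0.07 for complex IV (9 of 16). The members share the same libraries, so their signs are not independent.

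**Figure D3:**
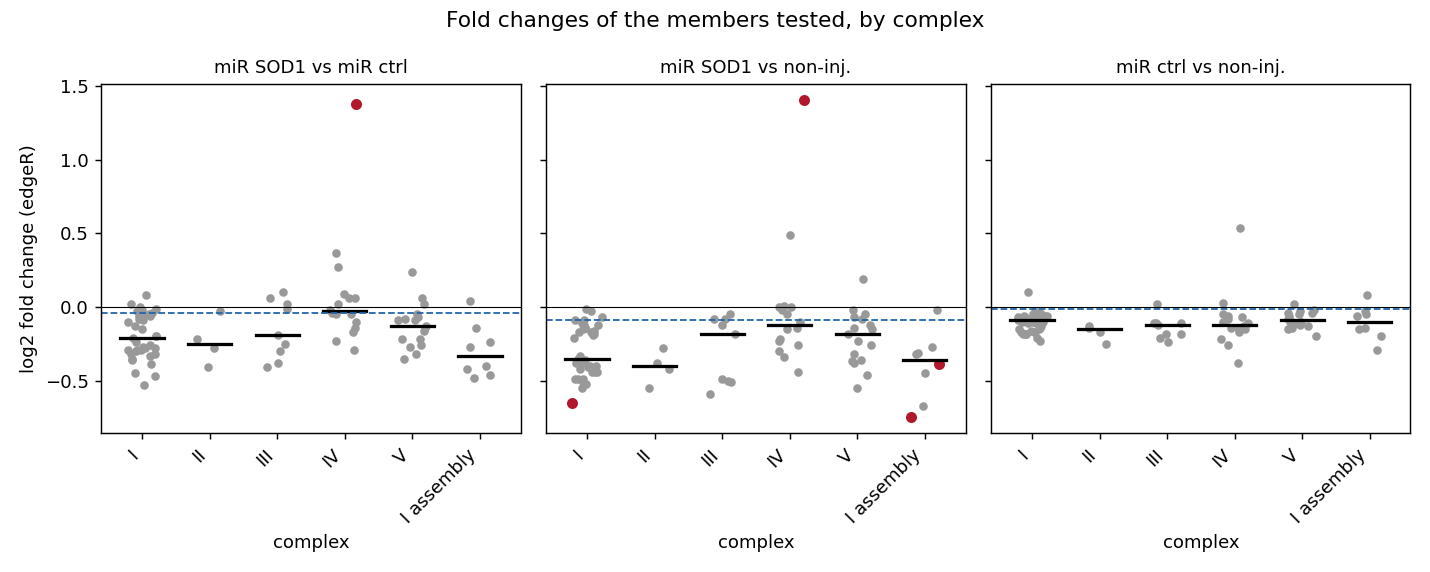
Log2 fold changes from edgeR of the 92 members tested in the pairwise comparisons, by complex, with the median of each complex as a black line and that of all 17403 genes as a dashed blue line. Red points have an unadjusted p under 0.05 and none an adjusted p under 0.05; the red point near 1.4 is Cox6b2.

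Complex I is the entry point for electrons from NADH. Ndufa10, an accessory subunit of its membrane arm (chromosome 1, 92439010 to 92473860), had the smallest p of the 38 genes. It was measured at 273, 291, 415 and 466 CPM in AAV-miR SOD1 replicates 1 to 4, at 290, 471, 458, 652 and 629 CPM in AAV-miR ctrl replicates 1, 3, 4, 5 and 6, and at 462, 585, 530 and 685 CPM in non-injected replicates 2, 3, 5 and 6. AAV-miR ctrl replicate 1 lay among the AAV-miR SOD1 libraries, and the groups overlapped. Against both control groups its log2 fold change was -0.56 ± 0.24 (SE), with an unadjusted p of 0.0349 and an adjusted p of 0.19 by edgeR.

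Next in that comparison came Ndufs5, Ndufa9 and Ndufs7, with unadjusted p-values between 0.0749 and 0.0888 (adjusted 0.276 to 0.303 by edgeR). Ndufs5 averaged 112 ± 30.1 CPM (SD, n = 4) against 140 ± 25.1 (n = 5) and 157 ± 38.5 CPM (n = 4) in AAV-miR ctrl and non-injected. Ndufs7, a core subunit that holds an iron-sulfur cluster, averaged 571 ± 169, 718 ± 168 and 815 ± 87 CPM in the same order, and Ndufa9 294 ± 103, 385 ± 99.9 and 429 ± 72.2 CPM. The 75-kDa core subunit Ndufs1 averaged 152 ± 60.3, 208 ± 53.1 and 218 ± 76.3 CPM, and Ndufv1, which binds NADH, 412 ± 138, 514 ± 118 and 577 ± 147 CPM. In each of these the ranges of the groups overlapped and the difference did not pass the test.

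The 8 Ndufaf genes encode factors that help to build complex I and are not part of it. Against both control groups 3 of 8 were lower at the unadjusted level, as were 12.1% of all genes, and 0 of 8 after adjustment. Ndufaf1, a core assembly factor of the membrane arm (chromosome 2, 119655446 to 119662827), was measured at 29.7, 31.2, 47.4 and 47.3 CPM in AAV-miR SOD1 replicates 1 to 4. Its values were 31.4, 54.3, 55.9, 73.6 and 52.6 CPM in the AAV-miR ctrl libraries and 59.8, 56.4, 74.4 and 71.6 CPM in the non-injected libraries. All AAV-miR SOD1 values thus lay below all non-injected ones, and AAV-miR ctrl replicate 1 lay with the AAV-miR SOD1 libraries. The log2 fold change was -0.75 ± 0.25 (SE, unadjusted p = 0.00932, adjusted p = 0.147 by edgeR) against non-injected and -0.46 ± 0.24 against AAV-miR ctrl (unadjusted p = 0.0734, adjusted p = 0.387 by edgeR).

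Ndufaf3, which acts early in assembly, ran from 64.4 to 80.3 CPM in AAV-miR SOD1, from 72.2 to 94.6 CPM in AAV-miR ctrl and from 84.9 to 116 CPM in non-injected libraries. It had the smallest spread within groups of the members tested (SD 0.17 on the log2 scale), and a log2 fold change of -0.39 ± 0.17 (SE, unadjusted p = 0.0323, adjusted p = 0.2 by edgeR) against non-injected. Ndufaf2 averaged 88.9 ± 15.8, 119 ± 14.8 and 121 ± 41.1 CPM in AAV-miR SOD1, AAV-miR ctrl and non-injected. For Ndufaf2, 65.6% of exonic bases overlap a long non-coding gene on the other strand, and the strand setting of the counting is not given in the sources used here, so its count is uncertain. Ndufaf7, a methyltransferase for a complex I subunit, averaged 37.1 ± 3.26, 48.9 ± 12.4 and 46.3 ± 7.02 CPM.

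**Figure D4:**
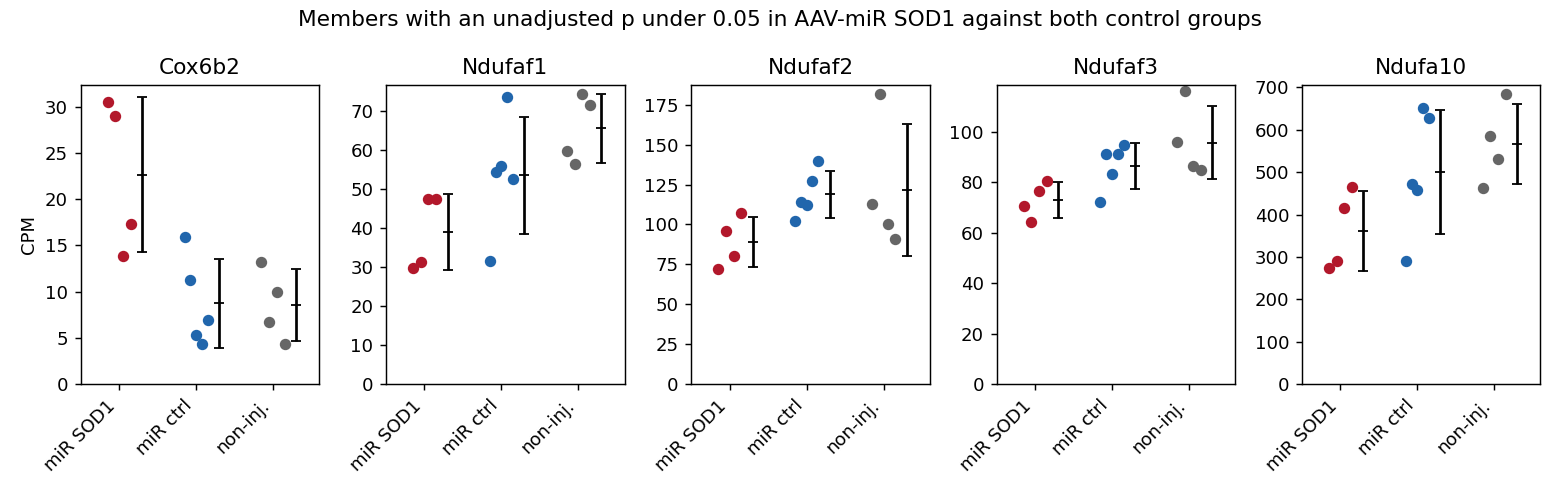
CPM in each library of the 5 members with an unadjusted p under 0.05 in AAV-miR SOD1 against both control groups, with the mean and SD of each group as a black bar. Cox6b2 is higher and the others lower in AAV-miR SOD1, the groups overlap in every panel when both control groups are pooled, and none passed the adjusted threshold.

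Complex II also belongs to the citric acid cycle, and all of its subunits are nuclear-encoded. None of the 4 genes had an unadjusted p under 0.05 in any comparison. Sdha, the flavoprotein that oxidises succinate, averaged 461 ± 151, 612 ± 120 and 673 ± 280 CPM in AAV-miR SOD1, AAV-miR ctrl and non-injected. Sdhb, the iron-sulfur subunit, averaged 752 ± 392, 874 ± 250 and 981 ± 264 CPM. The membrane anchors Sdhc and Sdhd averaged 337 ± 178 and 458 ± 180 CPM in AAV-miR SOD1, beside 450 ± 140 and 558 ± 188 CPM in non-injected. The SD within AAV-miR SOD1 was larger than the gap between group means for Sdhb, Sdhc and Sdhd.

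In complex III, 0 of 9 genes had an unadjusted p under 0.05. The core proteins Uqcrc1 and Uqcrc2 averaged 846 ± 351 and 264 ± 105 CPM in AAV-miR SOD1, beside 1197 ± 313 and 369 ± 98.9 CPM in non-injected. The catalytic Rieske iron-sulfur protein Uqcrfs1 showed another order of the libraries than most members. It stood at 372, 273, 555 and 172 CPM in AAV-miR SOD1 replicates 1 to 4, at 183, 155, 669, 596 and 676 CPM in AAV-miR ctrl, and at 194, 532, 461 and 874 CPM in non-injected. The 4 low libraries (AAV-miR SOD1 replicate 4, AAV-miR ctrl replicates 1 and 3 and non-injected replicate 2) came from all 3 groups and were parted from the rest by 0.49 on the log2 scale. Cytochrome c1, Cyc1, was at 323 to 426 CPM in the same 4 libraries, at 398 CPM in AAV-miR SOD1 replicate 2 and at 546 to 1236 CPM in the other 8.

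Complex IV contained the member with the smallest p overall. Cox6b2 encodes the isoform of subunit 6b known from testis (chromosome 7, 4751792 to 4753094), and none of its 50-base windows is shared with another gene. It was measured at 30.5, 29, 13.8 and 17.3 CPM in AAV-miR SOD1 replicates 1 to 4, at 15.9, 11.2, 5.32, 4.34 and 6.87 CPM in AAV-miR ctrl replicates 1, 3, 4, 5 and 6, and at 13.2, 6.66, 10 and 4.32 CPM in non-injected replicates 2, 3, 5 and 6. Every AAV-miR SOD1 value lay above every non-injected value, and AAV-miR ctrl replicate 1 lay above the lowest AAV-miR SOD1 library. Against both control groups its log2 fold change was 1.39 ± 0.36 (SE), with an unadjusted p of 0.00164 and an adjusted p of 0.096 by edgeR. DESeq2 and limma-voom put the adjusted p at 0.0139 and 0.0313, and over the edgeR fits leaving out 1 library it ran from 0.0239 to 0.376. The fits by DESeq2 and limma-voom called many other genes too, as given below. The edgeR fit with 0.0239, without AAV-miR ctrl replicate 1, called 9.84% of all genes, so these values do not single out Cox6b2. The partner gene Cox6b1 was at 852 to 1630 CPM, so per kilobase Cox6b2 made up 0.412 to 3.84% of the pair.

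Erythroid RNA was also high in the AAV-miR SOD1 libraries: the mean log2 CPM of 7 erythroid genes was 11.65, 11.47, 10.25 and 11.04 in AAV-miR SOD1 replicates 1 to 4, and 7.97 to 10.71 in the 9 control libraries. With this erythroid level in the edgeR fit beside the groups, Cox6b2 rose with it by 0.72 ± 0.13 log2 units per log2 unit (SE, adjusted p = 0.0183 by edgeR), as 1.42% of all genes did. Its log2 fold change against both control groups was then 0.17 (adjusted p = 1 by edgeR), in place of 1.39. The erythroid level itself differed between the groups, so level and group can be told apart only in part. No other complex IV gene had an unadjusted p under 0.05 in any comparison. Cox4i1 averaged 1748 ± 436, 1973 ± 336 and 2153 ± 448 CPM in AAV-miR SOD1, AAV-miR ctrl and non-injected. Cox5b, a zinc-binding subunit, averaged 282 ± 84.5, 331 ± 66 and 356 ± 69.7 CPM. Cox5a was lowest in the same 4 libraries as Uqcrfs1, at 217, 217, 180 and 212 CPM, and at 274 to 660 CPM in the other 9.

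Several complex IV subunits exist as a ubiquitous isoform and one used by heart and skeletal muscle. The muscle isoforms Cox6a2, Cox7a1 and Cox8b were present in all 13 libraries and varied more within groups than any other member tested, with SDs of 1.34, 1.37 and 1.54 on the log2 scale, where the median was 0.44 over the members and 0.54 over all genes tested. Cox8b was measured at 373, 57.4, 1467 and 972 CPM in AAV-miR SOD1 replicates 1 to 4, at 203, 1029, 947, 270 and 333 CPM in AAV-miR ctrl, and at 1616, 436, 148 and 702 CPM in non-injected. Both low and high values occurred in each group. Its ubiquitous partner Cox8a stayed between 583 and 1005 CPM.

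Per kilobase, Cox8b made up 10.9 to 75.8% of Cox8a plus Cox8b. Cox6a2 made up 9.98 to 66% of its pair with Cox6a1 and Cox7a1 9.64 to 51.5% of its pair with Cox7a2. In each pair the lowest share was in AAV-miR SOD1 replicate 2, and the highest in AAV-miR SOD1 replicate 3. The isoform switched on by low oxygen, Cox4i2, was at 1.39 to 8.09 CPM and made up at most 0.392% of its pair. Ndufa4l2, a low-oxygen-induced relative of Ndufa4, was at 2.21 to 31.3 CPM. Neither of these 2 genes had an unadjusted p under 0.05.

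Complex V had 0 of 17 genes with an unadjusted p under 0.05. Its catalytic head subunits Atp5a1 and Atp5b averaged 1410 ± 434 and 2631 ± 958 CPM in AAV-miR SOD1, 1755 ± 394 and 3159 ± 657 CPM in AAV-miR ctrl, and 1943 ± 510 and 3435 ± 930 CPM in non-injected. Atp5d, the delta subunit of the central stalk, averaged 810 ± 206, 944 ± 155 and 1041 ± 105 CPM in that order. Atp5s, a coupling factor gene, was at 16.7, 13.2, 24 and 21 CPM in AAV-miR SOD1 and at 25.5, 27.8, 25.7 and 30.8 CPM in non-injected, with an unadjusted p of 0.0625. Atp5e, the epsilon subunit, had the opposite sign, at 0.22 ± 0.43 (SE) on the log2 scale against both control groups.

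A second description follows the muscle RNA in the libraries. When the mean log2 CPM of the 8 skeletal muscle genes was added to the edgeR fit beside the groups, 44 of 92 members rose with it at an adjusted p under 0.05 and 0 fell, where 5.5% of all genes rose and 0.615% fell. The median slope of the members was 0.318 log2 units per log2 unit of muscle level, beside -0.045 over all genes, and 91 of 92 slopes were positive. The muscle isoforms Cox8b (slope 1.257 ± 0.202, SE), Cox6a2 (1.165 ± 0.128) and Cox7a1 (1.141 ± 0.165) were steepest, and those that rose included subunits found in all tissues such as Sdhb (0.521 ± 0.058) and Atp5c1 (0.484 ± 0.068). Without the 3 muscle isoforms 41 of 89 members rose. The rise was not particular to the members. In the fixed lists of related genes described below, 13 of 14 genes of the citric acid cycle rose (median slope 0.381), as did 5 of 9 carriers and porins. The same held for 6 of 16 electron carriers, 6 of 17 genes of glycolysis and 8 of 40 other assembly factors. It held for 2 of 17 regulators of mitochondrial biogenesis and 2 of 8 mitochondrially encoded subunits, and none of these genes fell.

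By complex, 20 of 38 genes of complex I, 4 of 4 of complex II, 4 of 9 of complex III, 5 of 16 of complex IV, 9 of 17 of complex V and 2 of 8 assembly factors rose with the muscle level. Cox6a1 (0.023 ± 0.077, SE) and Cox8a (0.034 ± 0.081) had slopes near 0, and Cox6b2 the only negative one (-0.313 ± 0.158, adjusted p = 0.294 by edgeR). The number of calls depended on the libraries included. Without AAV-miR SOD1 replicates 1 and 2, 4 of 92 members rose and 0 fell, where 1.34% of all genes rose and 0.224% fell, although the median slope was again 0.32. Leaving out 1 library at a time gave 28 members without AAV-miR SOD1 replicate 2 or 3, when 2.97 and 3.07% of all genes rose, and up to 52 without non-injected replicate 6, when 4.91% did. Leaving out both libraries with disagreeing headers gave 37, and 4.33% of all genes. In the libraries numbered 1 to 4 alone, which leaves out the deepest, 49 members rose and 0 fell, where 3.64% of all genes rose and 0.477% fell.

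The same fit with the mean level of the 10 motoneuron genes in place of muscle called 0 of 92 members in either direction, where 6.17% of all genes rose and 2.06% fell, and the members' median slope was -0.16. With the 7 erythroid genes 1 member, Cox6b2, rose and 0 fell, where 1.42% of all genes rose and 0.109% fell. With the muscle level in the fit, the members' median log2 fold change in AAV-miR SOD1 against both control groups was 0.02 in place of -0.19, and 0 members passed the adjusted threshold. Cox6b2 then stood at 1.09 (adjusted p = 0.175 by edgeR) and Ndufaf1 at -0.47 (adjusted p = 0.239). The median was -0.37 with the motoneuron level in the fit and -0.02 with the erythroid level, again with 0 members past the adjusted threshold. Motoneuron and erythroid levels both differed between the groups, so in these fits level and group can be told apart only in part. With the erythroid level Ndufaf1 stood at -0.08 and Ndufa10 at 0.07, the latter of opposite sign to the fit without it.

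**Figure D5:**
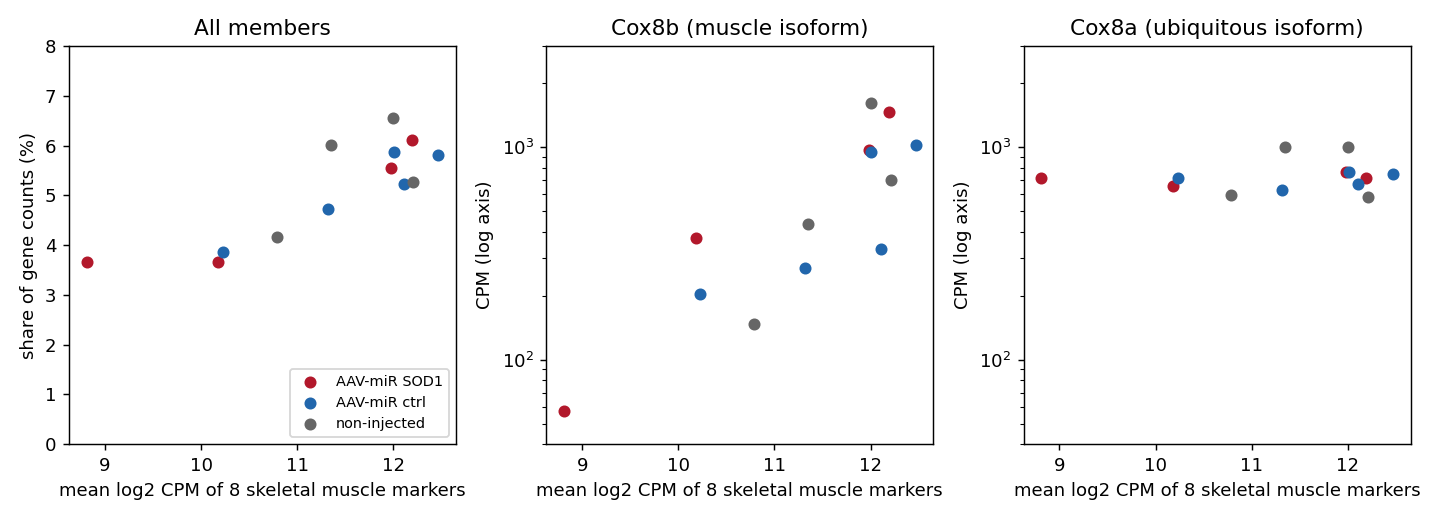
Share of gene counts taken by all members (left, linear axis) and CPM of Cox8b and Cox8a (middle and right, log axes) against the mean log2 CPM of 8 skeletal muscle genes in the 13 libraries. The members' share and Cox8b are low where muscle RNA is low, down to 3.66% and 57.4 CPM at a muscle level of 8.81, whereas Cox8a stays between 583 and 1005 CPM.

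Regulatory sequence was looked at because so many members varied together across libraries. NRF1 and the ETS factor GABP (NRF2) are known activators of respiratory chain genes. In RefSeq promoters of GRCm38.p6, where 74 of 94 members were found, the NRF1 letters, GCGCA and GCGC parted by 1 base, occurred on either strand within 250 bases upstream of the start in 14 members (18.9%), against 4.23% of 27025 genes. CCGGAAG (ETS) occurred in 14 members (18.9%) against 7.83%, and AAGATGGC (YY1) in 1 (1.35%) against 1.83%. The 27025 genes include genes that did not pass the filter on low counts. Promoters of genes with a like level or base content were not compared, so whether these shares are particular to the members was not tested. The NRF1 letters were present in genes of complexes I, II, IV and V and in the assembly factor gene Ndufaf4, as in the stretches from 200 to 51 bases before the start of Ndufs5 (chr4:123718237-123718386), Sdhd (chr9:50603900-50604049) and Cox6a1 (chr5:115349009-115349158), all on the minus strand, with the matches in capitals.
Ndufs5: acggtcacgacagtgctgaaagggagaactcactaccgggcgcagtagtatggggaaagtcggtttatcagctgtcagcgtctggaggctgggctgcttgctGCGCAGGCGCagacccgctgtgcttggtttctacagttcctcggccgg
Sdhd: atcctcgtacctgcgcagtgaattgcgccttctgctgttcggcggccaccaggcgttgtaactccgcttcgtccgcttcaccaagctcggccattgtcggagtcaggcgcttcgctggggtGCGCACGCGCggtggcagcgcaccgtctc
Cox6a1: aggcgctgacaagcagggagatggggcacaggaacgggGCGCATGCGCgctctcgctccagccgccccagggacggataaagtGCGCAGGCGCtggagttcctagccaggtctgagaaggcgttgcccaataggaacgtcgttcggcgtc
A match of letters is a description of the sequence and not a binding site. The median slope on muscle level was 0.32 over the 14 members with the NRF1 letters and 0.29 over the 59 tested members without them, and for the ETS letters it was 0.26 with and 0.31 without.

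The mitochondrial genome encodes 13 further subunits. Of these, 8 were tested and none had an unadjusted p under 0.05 in any comparison, and their median log2 fold change against both control groups was -0.10. mt-Nd1 was measured at 4805 to 10662 CPM and mt-Co1 at 2118 to 4546 CPM. mt-Nd4l, mt-Co2, mt-Co3, mt-Atp6 and mt-Atp8 were listed at 0 in all 13 libraries. All but mt-Atp8 share 98.8 to 100% of their windows with other annotated genes, whereas mt-Atp8 shares 0%. By contrast mt-Nd3, with 98% shared, was counted at 8.21 to 26.4 CPM. The cause of the 0 was not tested, and it is not read as a measure of their RNA.

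Other genes of the pathway were read from fixed lists, against both control groups and with 0 genes past the adjusted threshold in each. Over all genes 12.1% were lower and 10.2% higher at the unadjusted level of that comparison. Among the electron carriers 2 of 16 were lower, a share near that of all genes, and 0 higher: Coq8b at -0.95 ± 0.26 (SE) and Coq7, a hydroxylase of ubiquinone synthesis, at -0.60 ± 0.20. Of 40 other assembly factors tested 7 were lower and 0 higher, among them Surf1 (-0.44 ± 0.14), needed for complex IV assembly. The citric acid cycle had 0 of 14 in either direction, and its median was -0.38. Of the genes that regulate mitochondrial biogenesis 3 of 17 were higher (Sirt1, Nrf1 and Yy1) and 1 lower (Esrrg). Glycolysis had 5 of 17 lower and 0 higher, with Eno2, the neuronal enolase, at -1.17 ± 0.37. Of the carriers and porins 3 of 9 were lower (Vdac2, Vdac3 and Slc25a3) and 1 higher (Ucp2, 1.08 ± 0.34).

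Markers of cell types moved in the same comparison, where 12.1% of all genes were lower and 10.2% higher at the unadjusted level. All 10 motoneuron genes were lower (median -1.04) and all 7 erythroid genes higher (median 1.62), as were 5 of 7 neutrophil granule genes and 3 of 7 microglial genes. The 8 skeletal muscle genes were all negative (median -0.42) with 0 under an unadjusted p of 0.05, as was the case for 0 of 6 oligodendrocyte, 0 of 5 endothelial and 0 of 5 pericyte and smooth muscle genes. Of 7 astrocyte genes 1 was lower (Aldoc). No marker passed the adjusted threshold. The mean log2 CPM of the motoneuron genes was 6.46 to 7.24 in AAV-miR SOD1 libraries. It was 6.84 to 7.34 in AAV-miR ctrl replicates 1, 3 and 4 and non-injected replicate 2. In AAV-miR ctrl replicates 5 and 6 and non-injected replicates 3, 5 and 6 it was 7.87 to 8.52. No AAV-miR SOD1 library is numbered 5 or 6, so group and replicate number cannot be fully told apart. Summed motoneuron genes took 0.466 to 0.944% of counts in AAV-miR SOD1 libraries and 0.666 to 1.73% in control libraries, and skeletal muscle genes 0.789 to 8.42% and 1.98 to 9.46%. Fits with the muscle, motoneuron and erythroid levels are given above, and the part of the other cell types in the members' differences between groups was not tested.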

How the data were processed

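The deposited values are raw counts of reads per Ensembl gene, made by the authors with cutadapt 1.8, STAR 2.5.2b and HTSeq 0.6.1 on GRCm38, per the submitters' processing notes. The annotation release and strand setting are not given in the sources used here. Per the labels' protocols, cDNA was amplified with a low-input kit and tagmented, so counts are not independent molecules.

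Members and lists were chosen with earlier results of these data known. Of 48709 rows, 48349 were found in GENCODE M21. Genes were filtered with filterByExpr (minimum count 10, minimum total 15), which left 17403. Libraries were scaled by TMM and tested with edgeR 4.0.16 (quasi-likelihood F test, R 4.3.3) on all 13 libraries in 3 groups, p-values being adjusted by Benjamini-Hochberg (threshold 0.05). The code was tested on simulated data. Each library is taken as 1 mouse, although AAV-miR ctrl replicate 4 held both Xist and Ddx3y. SEs are the fold change over the root of F. CPM uses TMM-scaled sizes, and log2 CPM a prior count of 2. Levels per kilobase use the median transcript length of a gene. Named genes are the 4 with the smallest p per complex against both control groups, the 2 per direction in each pairwise comparison, fixed isoform pairs and core subunits; others named from the lists were chosen after their values were seen. Alternatives were RLE and upper quartile scaling, no filter, DESeq2 1.42.0, limma 3.58.1 (voom with quality weights), fits on fewer libraries, a replicate block, an exchange of the libraries whose headers disagree, and, chosen after seeing the data, marker levels as covariates. No 2 libraries agreed within sampling noise (lowest chi-square per degree of freedom 38.9 over 78 pairs).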

Additional observations from a re-analysis of the deposited data

Results flagged for a closer look

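In groups of 4 or 5 libraries, a value was marked where 1 library lay apart from the rest by Dixon's criterion. Of 153 groups of values examined 14 were marked, where chance marks about 1 in 20, or 7.65. The groups of values share libraries and are not independent, so 14 cannot be weighed against 7.65. Low values of AAV-miR ctrl replicate 1 made up 12 of the 14. On the log2 CPM scale this library stood at 7.74 for Ndufa9 (next library 8.63), 8.75 for Ndufs7 (9.48), 6.87 for Ndufs1 (7.73) and 8.28 for Ndufv1 (9.02) in complex I. It stood at 8.67 for Sdha (9.24), 9.20 for Uqcrc1 (10.09) and 7.60 for Uqcrc2 (8.30). In complex V it stood at 10.11 for Atp5a1 (10.77), 9.39 for Atp5d (9.92) and 10.99 for Atp5b (11.63). Its complex II genes took 0.156% of counts and its Ndufaf genes 0.0449%, below the other 4 libraries of the group. The muscle marker level of this library was 10.23, the lowest of its group.

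The remaining marked values were the low Cox7a2l of AAV-miR ctrl replicate 5, at 6.02 on the log2 CPM scale (next library 6.38), and the high Ndufs1 of non-injected replicate 6, at 8.38 (next library 7.57).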

How the results depend on the processing

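The count of members past the adjusted threshold was 0 in every edgeR fit of AAV-miR SOD1 against AAV-miR ctrl and of AAV-miR ctrl against non-injected, and by DESeq2 and limma-voom too. Against non-injected DESeq2 called 1 member (Cox6b2, log2 fold change 1.45), among 996 genes. Against both control groups DESeq2 and limma-voom called 1 each (Cox6b2, 1.42 and 1.59), among 1480 and 1461 genes, and over the 13 fits that leave out 1 library edgeR called 0 to 2, the 2 being Cox6b2 (1.56) and Ndufaf1 (-0.68) without AAV-miR ctrl replicate 1, when 1694 genes passed. The cause was not tested. Members lower than both control groups at an unadjusted p under 0.05 numbered 4, when 12.1% of all genes were lower. They numbered 2 with RLE scaling (10.7% of all genes) or without the filter (6.43%), 1 with upper quartile scaling (10.2%) or the replicate block (4.67%), 3 by DESeq2 (12.5%) and 8 by limma-voom (13.3%). With the motoneuron or the erythroid level as covariate, chosen after seeing the data, they numbered 0 (3% and 1.52% of all genes).

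Medians over the members moved by less than the SD between libraries (0.376) in all alternatives, but some by more than 1.5 times. Leaving out 1 library gave -0.29 to 0.00 for AAV-miR SOD1 against AAV-miR ctrl, -0.40 to -0.06 against non-injected mice, -0.23 to 0.03 between controls and -0.33 to -0.07 against both. The last was nearest 0 without AAV-miR SOD1 replicate 2 (-0.07), non-injected replicate 2 (-0.07), AAV-miR ctrl replicate 3 (-0.08) or AAV-miR SOD1 replicate 1 (-0.09), and farthest without AAV-miR SOD1 replicate 3 (-0.33) or 4 (-0.29). Over all alternatives the median for AAV-miR SOD1 against AAV-miR ctrl ran from -0.29 to 0.07, so its sign was not the same in all. It ran from -0.46 to -0.06 against non-injected mice and from -0.29 to 0.05 between controls. Against both control groups it ran from -0.37 with motoneuron level to 0.02 with muscle level as covariate. With erythroid level as covariate Ndufa10 changed its sign, to 0.024 against non-injected mice and 0.074 against both control groups (adjusted p = 1 by edgeR). The cause was not tested.

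Replicate numbers of the titles do not pair the libraries: 8 same-numbered pairs had correlations of -0.19 to 0.24, and 3 of 13 libraries correlated best with their own number. With the replicate block the medians were, in that order, -0.22, -0.33, -0.09 and -0.27, with 0 members past the adjusted threshold. A depth of 13897189 counts or more sets 3 counts at 0.0802 to 0.216 CPM, far below nearly all members, and the spread between mice limits these comparisons.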

Other observations

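The order of the libraries seen for Uqcrfs1 and Cox5a was not theirs alone. Among 2701 tested genes whose 4 lowest libraries were parted from the rest by at least 0.3 on the log2 scale, 113 had AAV-miR SOD1 replicate 4, AAV-miR ctrl replicates 1 and 3 and non-injected replicate 2 as the lowest, and 5 had these 4 as the highest with such a gap. This was the third most frequent set, and the most frequent held 226 genes. Of the members, Uqcrfs1, Cox5a and the assembly factor Ndufaf6 belonged to the 113. Ndufaf6 was at 11.9, 14.9, 13.8 and 16.4 CPM in these 4 libraries and at 24.8 to 58.2 CPM in the other 9. The labels give no feature that these 4 libraries share.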
